A study of Mus musculus with 502 samples.

Results

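The silencers described here lie around the 4 HOX gene clusters of the human genome and in the stretches of chromosome that flank them. They were chosen by position alone: a listed silencer is a member when its midpoint falls in chromosome 7 from 26 to 28 Mb (HOXA), chromosome 17 from 48 to 49.5 Mb (HOXB), chromosome 12 from 53.4 to 54.6 Mb (HOXC) or chromosome 2 from 175 to 178 Mb (HOXD), on the hg38 build. These windows held 1174 of the 397136 silencers analysed, with 331 from 293T, 408 from K562 and 435 from LNCap. HOXA held 276 of them, HOXB 333, HOXC 226 and HOXD 339. The windows span 7.7 Mb, or 0.250% of the genome length, and the share of a list that fell in them was 0.264% for 293T, 0.304% for K562 and 0.316% for LNCap.

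A silencer is a stretch of DNA that lowers transcription from a promoter placed near it. Silencers were measured by Ss-STARR-seq, which places random pieces of the genome in a reporter plasmid, brings the pool into cells and compares the RNA made from each plasmid with the plasmid DNA put in. A fragment is thus read outside its chromosome, away from the chromatin and the neighbours it has in the cell. The labels set 3 established cell lines side by side, with no treatment or genotype that distinguishes them further: K562, from a chronic myeloid leukaemia, LNCap, from a prostate carcinoma, and 293T, from embryonic kidney cells carrying a viral large T antigen. The series lists 461 output RNA libraries (180 of K562, 179 of LNCap and 102 of 293T) and 41 input DNA libraries (40 of LNCap and 1 of 293T), all labelled as mouse although lines and build are human. Each line enters as 1 deposited silencer list, so there is no replicate spread and every interval given covers counting error only. The read depth behind a silencer is unknown, and the lists hold no marker by which the identity of a line could be checked.

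HOX genes encode homeodomain transcription factors that set the identity of segments along the body axis. They are switched on in the order in which they stand on the chromosome, and where they are not used they are held silent by Polycomb proteins, best known from this family. Long-range elements in the flanking regulatory domains act on them: around HOXD, the domain on the HOXD13 side is known for its digit enhancers and the domain on the HOXD1 side for its forearm enhancers. HOXA9 and its neighbours are known for their part in leukaemia and HOXB13 for its part in the prostate. In the mouse assembly GRCm38.p6, RefSeq lists 39 Hox genes, 11 in Hoxa, 10 in Hoxb, 9 in Hoxc and 9 in Hoxd, with no other protein-coding gene between the first and the last of a cluster. There the Hoxa cluster lies between Skap2, an adaptor protein gene, and Evx1, a homeobox gene, and Hoxb between Ttll6 and Skap1. Hoxc lies between Calcoco1 and Smug1, a DNA repair gene, and Hoxd between the homeobox gene Evx2 and Mtx2, a mitochondrial import gene. No human annotation was used here, so silencers are given by position, and the 100 kb bins said to hold HOX genes were placed from general knowledge of the build.

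HOXB was the fullest of the 4 windows in all 3 lists. There the 293T list had 92 silencers, K562 110 and LNCap 131, which is 61.3 per Mb (95% Poisson interval 49.4 to 75.2), 73.3 per Mb (60.3 to 88.4) and 87.3 per Mb (73.0 to 104). Over the whole genome the lists held 40.6, 43.5 and 44.6 silencers per Mb. The HOXB density relative to the whole list was therefore 1.51 for 293T (1.22 to 1.85), 1.69 for K562 (1.39 to 2.03) and 1.96 for LNCap (1.64 to 2.32). Among 1933 genome tiles of the same length, 10.6%, 9.62% and 5.38% held at least as many silencers of these lists. Chromosome 17 as a whole held 43.9 silencers of 293T, 59.8 of K562 and 64.1 of LNCap per Mb, and against it the HOXB ratios were 1.40, 1.23 and 1.36. With scores of at least 3 alone the HOXB interval included 1 in 293T (0.717 to 2.42) and LNCap (0.891 to 2.86).

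HOXC was dense in K562 and LNCap and average in 293T. K562 had 86 silencers there, or 71.7 per Mb and 1.65 times its list (1.32 to 2.04), and LNCap had 87, or 72.5 per Mb and 1.62 times its list (1.30 to 2.00). The 293T list had 53, or 44.2 per Mb, with a ratio of 1.09 whose interval (0.815 to 1.42) includes 1. Both of these calls depended on the setting: with the window narrowed by 250 kb the K562 ratio was 1.28 (0.911 to 1.75), and with scores of at least 2.5 the LNCap ratio was 1.35 (0.857 to 2.03). At least as many silencers lay in 10.9% of 2415 same-length tiles for K562, 12.0% for LNCap and 47.7% for 293T. The fraction of the 293T list in this window, divided by the mean of the K562 and LNCap fractions, was 0.665 (exact conditional interval 0.479 to 0.909), and 8.48% of the tiles with at least 20 silencers had a ratio as low. That interval took in 1 with the window narrowed by 250 kb (0.42 to 1.07) and with scores of at least 2.5 (0.407 to 1.28) or 3 (0.159 to 1.62). In the other windows the intervals of this ratio included 1 for every list. With windows widened by 250 kb, however, 293T in HOXB was at 0.732 (0.586 to 0.910) and LNCap in HOXC at 1.36 (1.09 to 1.69).

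The HOXA and HOXD densities had intervals that took in those of the whole lists. HOXA held 79 silencers of 293T, 98 of K562 and 99 of LNCap, with ratios of 0.973 (0.770 to 1.21), 1.13 (0.915 to 1.37) and 1.11 (0.901 to 1.35). HOXD, the longest window, held 107, 114 and 118, with ratios of 0.879 for 293T (0.720 to 1.06), 0.874 for K562 (0.721 to 1.05) and 0.881 for LNCap (0.729 to 1.06). All 6 intervals included 1. For HOXD this turned on the genome length and on the score cutoff. With genome length taken as the 100 kb bins that hold a silencer, the ratio was 0.802 for 293T (0.657 to 0.969), 0.798 for K562 (0.658 to 0.958) and 0.804 for LNCap (0.666 to 0.963). At scores of at least 2.5 it was 0.681 in 293T (0.459 to 0.972) and 0.517 in LNCap (0.324 to 0.783). At scores of at least 3 it was 0.347 in 293T (0.127 to 0.755). The K562 intervals at both cutoffs, and that of LNCap at 3, included 1. In 293T the ratio to chromosome 2, 0.814 (0.667 to 0.983), and that of the narrowed window, 0.788 (0.625 to 0.981), also had intervals below 1. The fraction of a list in HOXD, divided by the mean of the remaining lists, was 1.00 for 293T (0.789 to 1.26), 0.993 for K562 (0.786 to 1.25) and 1.01 for LNCap (0.797 to 1.26).

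**Figure D1:**
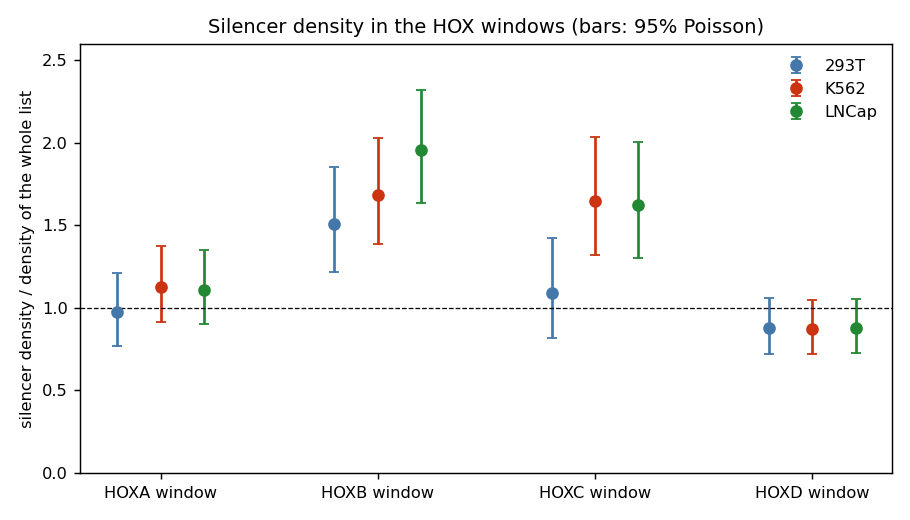
Silencer density in each HOX window divided by the density of the whole list (y axis, no unit) for the 3 lists; points are ratios, bars 95% Poisson intervals, and the dashed line marks the whole list. HOXB lies above 1 in all 3 lists (1.51, 1.69 and 1.96), HOXC in K562 and LNCap, and the HOXA and HOXD intervals include 1.

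Within the windows the silencers were unevenly spread along the chromosome. In the 28134 genome bins of 100 kb that held a silencer, the median was 13 silencers over the 3 lists. The 77 bins of the HOX windows had a median of 14. The fullest was the HOXB bin from 48.8 to 48.9 Mb, which starts where the HOX gene bins of that window end, on the HOXB13 side. It held 49 silencers, 13 of 293T, 17 of K562 and 19 of LNCap, and 0.217% of genome bins were as full. All 3 lists had their highest HOXB count in this bin. Next came the HOXC bin from 53.4 to 53.5 Mb, the outermost on the HOXC13 side, with 39 silencers, a count reached by 1.23% of genome bins. There 293T had 3 silencers against 17 in K562 and 19 in LNCap. The HOXB bin from 49.3 to 49.4 Mb held 36 (10, 13 and 13). The fullest bin of HOXA, from 26.2 to 26.3 Mb, held 24 (7, 11 and 6), and that of HOXD, from 175.1 to 175.2 Mb, held 20 (4, 7 and 9).

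The emptiest bins included several that hold HOX genes. The HOXA bin from 27.1 to 27.2 Mb, with most of the HOXA genes, held 4 silencers, 2 of 293T, 1 of K562 and 1 of LNCap, and 6.11% of genome bins held as few. In HOXC 3 bins in a row, from 53.8 to 54.1 Mb, held 6 silencers each, as few as 12.97% of genome bins. The upper 2 of them are the HOX gene bins of this window: from 53.9 to 54 Mb the lists had 5, 1 and 0, and from 54 to 54.1 Mb they had 0, 2 and 4, in the order 293T, K562, LNCap. In HOXB and HOXD the emptiest bins lay outside the HOX genes. They were the HOXB bin from 48.2 to 48.3 Mb with 7 silencers (4, 0 and 3) and the HOXD bins starting at 175.8, 176.4 and 176.8 Mb with 6 each.

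**Figure D2:**
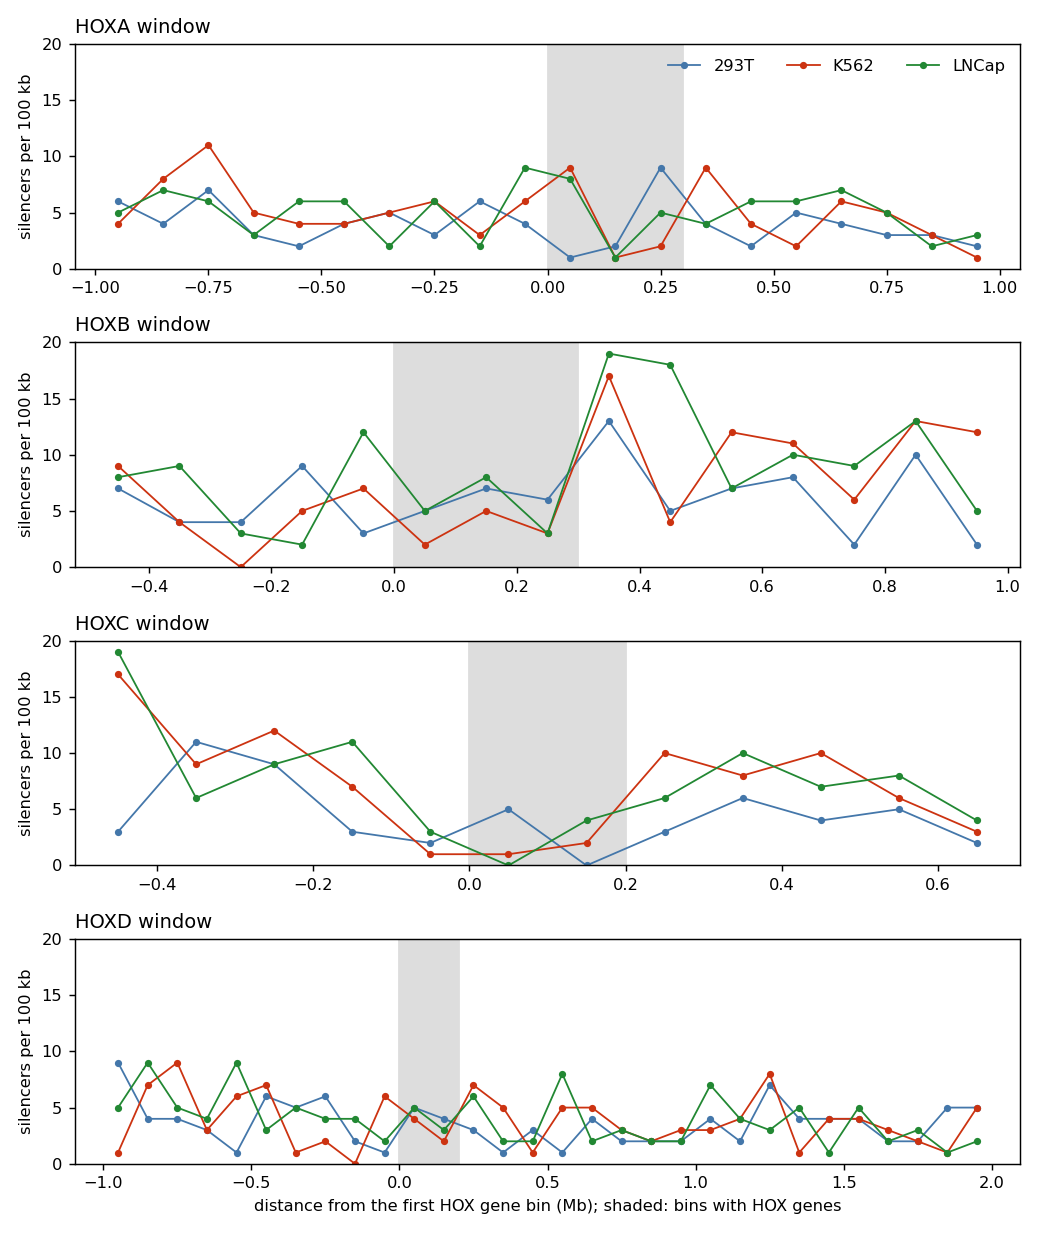
Silencers per 100 kb bin (y axis) of 293T, K562 and LNCap in each window, by distance of the bin's centre from the start of the first HOX gene bin in Mb (x axis); grey marks the bins that hold HOX genes. The bin just above the HOXB genes reaches 13, 17 and 19 silencers, and the grey HOXC bins hold 0 to 5 per list.

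The 10 HOX gene bins, 1 Mb in all, held 44 silencers of 293T, 31 of K562 and 42 of LNCap, and the remaining 6.7 Mb of the windows held 287, 377 and 393. In K562 this is 31 per Mb (21.1 to 44) against 56.3 per Mb in the flanks (50.7 to 62.2), a ratio of 0.551 (exact conditional interval 0.369 to 0.795). Such an interval treats silencers as independent, though 13.3% of the gaps in the K562 list are within 500 bp, so it may be too narrow. No genome background was computed for this ratio, and the gene bins were chosen with earlier results of these data known. The K562 density was below that of both flanks in 4 of 4 windows. It was 40 per Mb in HOXA against 56 below the genes and 42.9 above, and 33.3 in HOXB against 50 and 107. In HOXC it was 15 against 92 and 74, and in HOXD 30 against 42 and 36.7. The gene-bin intervals of HOXA (20.7 to 69.9, 12 silencers) and HOXD (11.01 to 65.3, 6 silencers) took in both flank densities. That of HOXB, from 10 silencers, took in the density below the genes. Only the HOXC interval (3.09 to 43.8), from 3 silencers, lay below both flank densities. LNCap had 42 per Mb (30.3 to 56.8) against 58.7 (53.0 to 64.8), a ratio of 0.716 (0.508 to 0.986), and was below both flanks in 3 of 4 windows. In 293T the densities were 44 and 42.8 per Mb, a ratio of 1.03 (0.730 to 1.41), and the gene bins were below both flanks in 1 of 4 windows, HOXC. Against the whole list the gene bins stood at 0.713 in K562 and 0.941 in LNCap and the flanks at 1.29 and 1.31, so in LNCap the gene bins were near the list average beside full flanks. The K562 interval of the gene bins, 21.1 to 44 per Mb, includes the 43.5 of the list.

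How far the lower K562 and LNCap densities reach depended on where the line around the genes was drawn. Widening the gene bins by 1 bin on each side, which takes in the full HOXB bin at 48.8 Mb, moved the K562 ratio to 0.981 (0.771 to 1.24) and the LNCap ratio to 1.02 (0.807 to 1.27). Without HOXC the K562 ratio was 0.679 (0.443 to 1.00) and the LNCap ratio 0.873 (0.606 to 1.23), so in both lists the interval then reached 1. Leaving out HOXB also brought 1 into the LNCap interval, at 0.735 (0.472 to 1.10), as did merging LNCap silencers within 500 bp, also at 0.735 (0.506 to 1.04). The order of 293T and LNCap also depended on the score. At scores of at least 2.5 the ratio was 0.531 in 293T, 0.225 in K562 and 0.862 in LNCap. These rest on 8, 4 and 13 silencers in the gene bins. At scores of at least 3 the ratios were 0.693, 0.186 and 0.957, from 3, 1 and 5 silencers. Whether the 3 lists differ in the ratio of gene bins to flanks was not tested.

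Few silencers inside the HOX gene bins reached a score of 3. Their median score was 2.2 in 293T, 2.1 in K562 and 2.3 in LNCap, against 2.3, 2.2 and 2.2 over the whole lists. A score of 2.5 was reached by 8 of 44 silencers in 293T, 4 of 31 in K562 and 13 of 42 in LNCap. The share of the whole lists at 2.5 is not given here. The score is the authors' activity value, listed from 2 upwards with 1 decimal on a scale that is not stated, and it is used here only within a list. Of the 31 K562 silencers in these bins 1 reached a score of 3, or 3.23% (Wilson interval 0.572 to 16.2) against 9.83% of the list. Of the 44 of 293T 3 did, or 6.82% (2.35 to 18.2) against 14.2%, and of the 42 of LNCap 5 did, or 11.9% (5.19 to 25) against 11.6%. All 3 intervals include the share of the list. The K562 silencer and a LNCap silencer are the same interval, chr12:54067101-54067151 in HOXC, with scores of 3.3 and 3.2. The 293T silencers with a score of 3 or more were chr7:27113877-27113927 in HOXA with 4.5, the highest of 293T in that window, and chr17:48521414-48521464 with 4 and chr17:48651573-48651623 with 3.2 in HOXB. LNCap also had chr7:27256251-27256301 with 3.1, which overlapped a 293T silencer, chr7:27268086-27268136 with 3, chr17:48661601-48661651 with 3 and chr2:176152401-176152451 with 3. In the gene bins 3 of the 44 silencers of 293T overlapped another list, or 6.82% (2.35 to 18.2) against 6.09% of the list. In K562 10 of 31 did, or 32.3% (18.6 to 49.9) against 17.9%, and in LNCap 13 of 42, or 31.0% (19.1 to 46.0) against 17.8%. The K562 and LNCap intervals lie above the share of their list, and that of 293T includes it. Most of these K562 and LNCap silencers overlap each other, so the shares of these lists are not independent.

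Around the HOXA genes the lists were full on different sides. From 27 to 27.1 Mb there were 9 silencers of K562, 8 of LNCap and 1 of 293T. From 27.2 to 27.3 Mb there were 2 of K562, 5 of LNCap and 9 of 293T. Between them K562 had no silencer from 27127278 to 27267291, a gap of 140 kb, and LNCap had none from 27114163 to 27256251, a gap of 142 kb. Gaps as long made up 0.905% of the K562 gaps and 0.805% of the LNCap gaps in the genome, or 0.787 and 0.718 for each genome stretch of the window's length. The stretch from 27127278 to 27187151, 59.9 kb long, held no silencer of any list and was the longest such stretch of the HOXA window. The difference between these bins was not tested, as they were singled out after their counts had been seen.

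HOXC had the longest empty stretch of the 4 windows, inside its gene bins. No silencer of any list lay between 53999551 and 54067101, a distance of 67.6 kb. Of the 366988 gaps between listed regions of the genome, whose median is 4.08 kb, 0.360% (1320 gaps) are as long, which is 0.513 for each genome stretch of the HOXC window's length. LNCap alone had no silencer over 239 kb, from 53828351 to 54067101, and 0.195% of its gaps (269) are as long, or 0.105 for each such stretch. The 293T list had none over 103 kb, from 53999551 to 54102553. The silencer that ends the empty stretch is the interval shared by K562 and LNCap at 54067101.

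In the remaining windows stretches free of all lists were no longer than the genome holds more than once for each window length. The longest free of all lists in HOXD was 61.0 kb, from 175805033 to 175866003, below the HOX genes, and stretches as long occur 1.72 times for each genome stretch of that window's length. For HOXA this figure was 1.22. In HOXB the longest was 47.4 kb, from 48224191 to 48271578, followed by 46.0 kb from 48539821 to 48585821 inside the gene bins, with figures of 1.87 and 2.04. Of the 12 longest gaps, 1 per list and window, 5 met HOX gene bins: K562 and LNCap in HOXA, LNCap in HOXB, and 293T and LNCap in HOXC. Some of those outside the gene bins were longer than the HOXA gaps: K562 had 168 kb without a silencer in HOXB, from 48158839 to 48326573 (0.539% of its gaps, 0.351 for each window length). In HOXD the longest gap was 159 kb in 293T, from 175805033 to 175963701 (0.670% of its gaps), and 153 kb in K562, from 175772677 to 175925851 (0.706%).

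**Figure D3:**
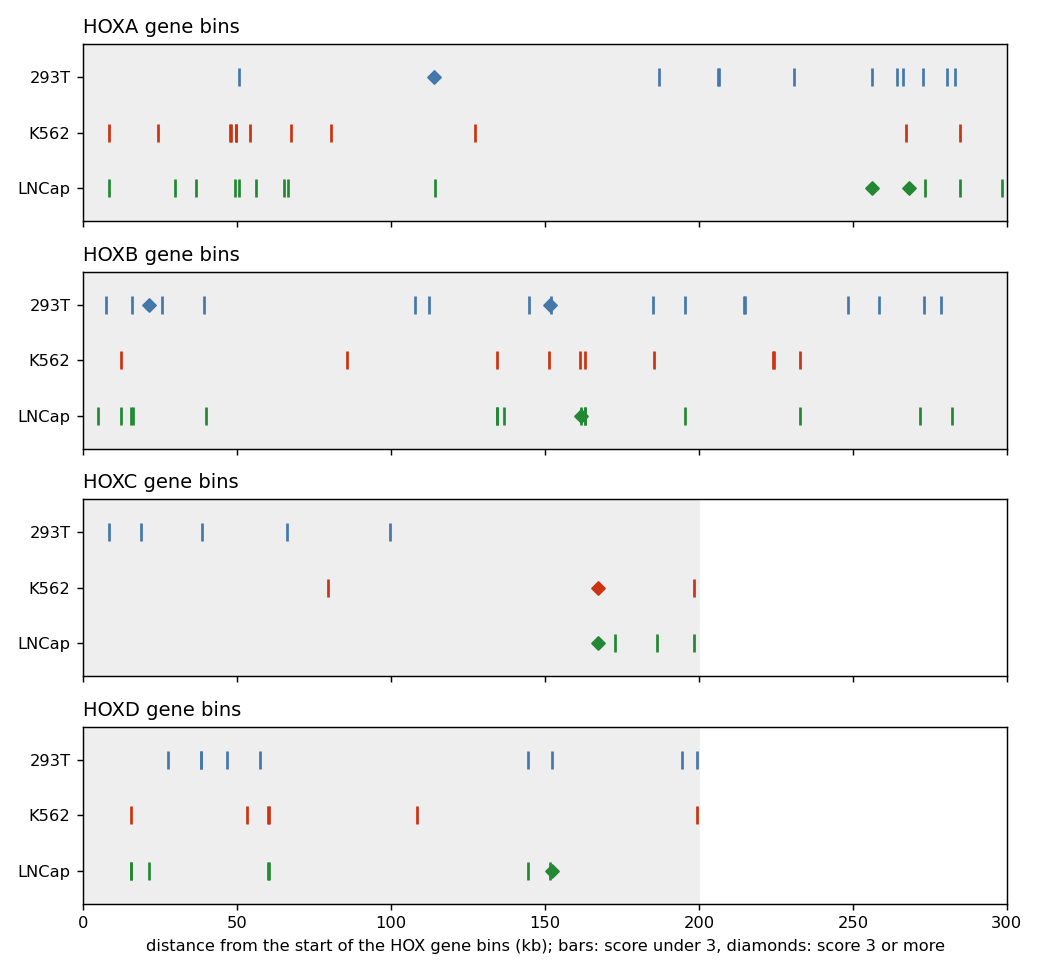
Midpoints of the silencers of each list inside the HOX gene bins, by distance from the start of these bins in kb (x axis); vertical bars have a score under 3, diamonds a score of 3 or more, and grey marks the extent of the bins. The HOXA panel shows the 59.9 kb without a silencer of any list and the HOXC panel the 67.6 kb that ends at the interval shared by K562 and LNCap.

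Bin by bin, K562 and LNCap counts were more alike than either was to 293T. Over the 77 bins Spearman's rho was 0.59 for K562 with LNCap, 0.22 for 293T with K562 and 0.19 for 293T with LNCap. Over the 28134 genome bins the same coefficients were 0.52, 0.32 and 0.31. Neighbouring bins are not independent, and all bins share the mappability of the genome, so these are descriptions. By window the K562 and LNCap coefficient was 0.73 in HOXC (12 bins), 0.56 in HOXA (20 bins), 0.50 in HOXB (15 bins) and 0.17 in HOXD (30 bins).

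Most HOX silencers, like most silencers of the genome, were listed in 1 line only. Merging overlapping silencers left 1073 regions, of which 303 came from 293T alone, 328 from K562 alone and 351 from LNCap alone. Regions of 1 list thus made up 91.5% (Wilson interval 89.7 to 93.0), against 92.9% over the genome. A further 66 regions were held by K562 with LNCap, 13 by LNCap with 293T and 10 by K562 with 293T. Those held by every list numbered 2, or 0.186%, where 0.372% of the genome's regions are held by all 3.

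Counted by silencer, overlap by at least 1 bp was near the share of the whole lists. Of the K562 silencers in the windows 70 of 408 overlapped LNCap, or 17.2% (Wilson interval 13.8 to 21.1), against 15.7% of the whole list. In turn 71 of 435 LNCap silencers overlapped K562, or 16.3% (13.1 to 20.1), against 15.4%. For 293T, 15 of 331 overlapped K562, or 4.53% (2.77 to 7.34), against 3.3% of the list, and 15 overlapped LNCap, the same share, against 3.58%. Of K562, 12 silencers or 2.94% overlapped 293T (1.69 to 5.07), against 3.03%, and of LNCap 15 or 3.45% did (2.10 to 5.61), against 3.23%. All 6 intervals included the value of the whole list. Inside the gene bins, as given above, the K562 and LNCap shares that overlapped any other list were higher, with intervals above those of their lists. HOXC had the highest share of K562 silencers that overlapped LNCap, 20 of 86 or 23.3% (15.6 to 33.2), and HOXD the lowest, 14 of 114 or 12.3% (7.46 to 19.6), and the intervals of these windows overlapped each other.

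**Figure D4:**
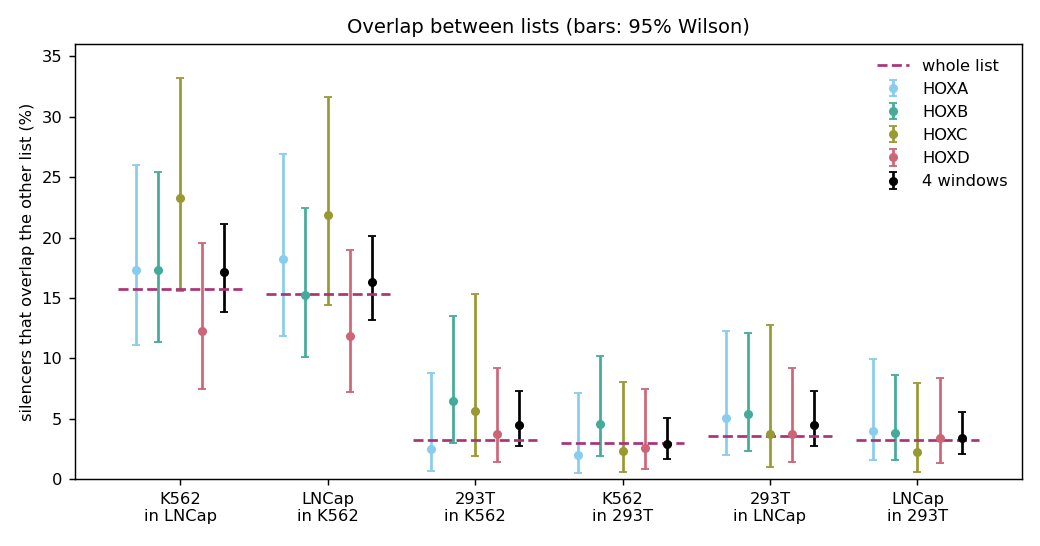
Share of each list's silencers that overlap another list by at least 1 bp (y axis, %), for each window and for the 4 windows together; bars are 95% Wilson intervals and the dashed lines the share over the whole list. K562 and LNCap overlap at 17.2% and 16.3%, and pairs with 293T at 2.94% to 4.53%.

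The region shared by all lists in HOXB holds the highest score of any HOX silencer. It spans chr17:48824461-48825250, 789 bp, in the fullest bin. K562 lists the whole of it as 1 silencer with a score of 2.1, the widest silencer of the HOXB window. Inside it 293T lists 48824651 to 48824751 with 2.1 and 48825051 to 48825101 with 2, and LNCap lists 48825085 to 48825181 with 7.2. In the LNCap list 59 silencers, or 0.0428% of those with a finite score, reach 7.2. The LNCap interval overlapped both the K562 silencer and the upper of the 293T silencers.

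The region shared by all lists in HOXD, chr2:175432714-175432851, spans 137 bp on the HOXD13 side of the cluster. LNCap lists 175432714 to 175432764 with a score of 2.4, K562 lists 175432751 to 175432801 with 2, and 293T lists 175432751 to 175432851 with 2.2. The LNCap score is above the median of its list, 2.2, and the 293T score is below its median of 2.3. The K562 score is the lowest listed, below its median of 2.2. No other HOXD region was held by all 3 lists.

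K562 and LNCap silencers formed 73 overlapping pairs. In 3 of them, 4.11%, start and end were identical, against 6.75% of the 22169 such pairs of the genome. Pairs were not counted by score over the genome. In the windows 37 pairs had both scores under 2.5, and in 2 both reached 3, both of them in HOXC. The first is the pair of chr12:53682741-53682841 in K562 with 4.1 and chr12:53682751-53682851 in LNCap with 4.6, which lies on the HOXC13 side and is the highest score of HOXC in each of these lists. The other is the identical interval at chr12:54067101-54067151 described above. Across the pairs Spearman's rho of the scores was 0.32, and 0.27 over the 22166 genome pairs with finite scores.

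Silencers that the K562 and LNCap lists shared were wider than the rest, with a median of 100 bp against 50 bp in either list, the same medians as over the whole lists. As sharing means an overlap of at least 1 bp, a wider silencer is counted as shared more readily. The score shares that follow were not matched for width. Of the 70 K562 silencers that overlapped LNCap 10 reached a score of 3 (14.3%), and of the other 338 27 did (7.99%). In LNCap 9 of 71 (12.7%) and 31 of 364 (8.52%) did. The genome showed the same order, with 14.5% and 8.96% in K562 and 18.8% and 10.3% in LNCap. Among silencers of exactly 50 bp, 12.6% of those in K562 overlapped LNCap and 10.3% of those in LNCap overlapped K562, close to the 11.0% and 10.5% of the whole lists.

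The 293T list shared 25 of the 1073 merged regions with another list, of which 9 lay in HOXB. In the windows 0.932% of merged regions were held by 293T with K562, 1.21% by 293T with LNCap and 0.186% by all 3. Over the genome these shares were 0.763%, 0.856% and 0.372%. Among the 25, the highest 293T score was at chr7:27334539-27334630 above the HOXA genes, where 293T had 4.3 and K562 2.2. Next was chr17:48866751-48866970 in the fullest HOXB bin, where 293T had 4.2 and K562 2.8. In 1 of the 25, 2 lists both reached a score of 3: chr17:48410835-48410935, with 3.1 in 293T and 3.3 in LNCap. That count was not made over the genome. Inside the HOX gene bins the regions that 293T shared were chr7:27050581-27050796 (2.3, with 2.2 in LNCap), chr7:27256224-27256301 (2.3, with 3.1 in LNCap) and chr2:176152350-176152451 (2.5, with 3 in LNCap).

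Scores in the windows were those of the lists at the median. In 293T the share of high scores over the 4 windows together, lowest in HOXD, was below that of its list. The median was 2.3 in 293T, 2.2 in K562 and 2.2 in LNCap, equal to the medians of the whole lists. A score of 3 or more was reached by 32 of 331 silencers in 293T, or 9.67% (Wilson interval 6.93 to 13.3), against 14.2% of the list. In K562 37 of 408 did, 9.07% (6.65 to 12.3) against 9.83%, and in LNCap 40 of 435, 9.20% (6.83 to 12.3) against 11.6%. In 293T the share was lowest in HOXD, with 6 of 107 or 5.61% (2.6 to 11.7). HOXA had 9 of 79 (11.4%, 6.11 to 20.3), HOXB 12 of 92 (13%, 7.62 to 21.4) and HOXC 5 of 53 (9.43%, 4.10 to 20.3). The 293T intervals of HOXA, HOXB and HOXC include the 14.2% of the list. HOXD was also lowest in LNCap, at 9 of 118 or 7.63% (4.06 to 13.9), and near the lowest in K562, at 7 of 114 or 6.14% (3.01 to 12.1). In K562 HOXB had the highest share, 16 of 110 or 14.5% (9.16 to 22.3).

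**Figure D5:**
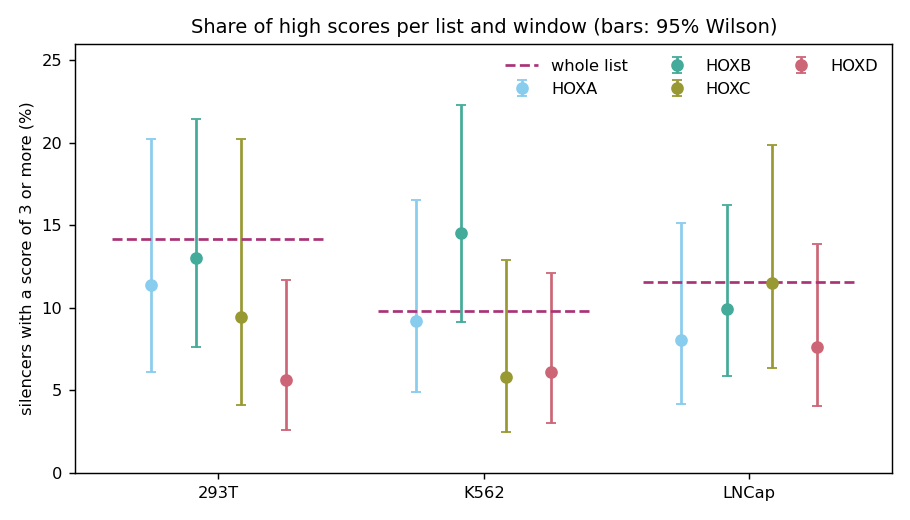
Share of silencers with a score of 3 or more (y axis, %) in each list and window; bars are 95% Wilson intervals and the dashed line the share over the whole list. In 293T the HOXD interval, 2.6% to 11.7%, lies below the 14.2% of the list, and in K562 HOXB is highest at 14.5%.

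A score of 4 or more was listed for 20 HOX silencers, 9 of 293T, 6 of K562 and 5 of LNCap, with 5 in HOXA, 7 in HOXB, 3 in HOXC and 5 in HOXD. This is 2.72% of the 293T silencers, 1.47% of K562 and 1.15% of LNCap, against 2.71%, 1.56% and 2.17% of the lists. Another list overlapped 6 of the 20, among them both members of the K562 and LNCap pair in HOXC described above. The overlapping share of such silencers over the whole lists was not computed. In HOXA the highest were chr7:27113877-27113927 in 293T with 4.5, in the emptiest bin of the window, chr7:26641645-26641700 in K562 with 4.1, which overlapped LNCap, and chr7:27989051-27989101 in LNCap with 4.3. In HOXB they were chr17:48422476-48422526 in 293T with 4.8 and chr17:48089151-48089201 in K562 with 4.3, beside the LNCap silencer of 7.2. In HOXC the highest of 293T was chr12:54434643-54434743 with 4.2, on the HOXC4 side.

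In HOXD the highest K562 silencer, chr2:176207649-176207800 with 4.5, lay just above the HOX gene bins on the HOXD1 side. The highest of LNCap, chr2:175476395-175476445 with 4.5, and of 293T, chr2:175509651-175509701 with 4.2, lay on the HOXD13 side, and a neighbouring 293T silencer, 175509851 to 175509901, had 4. None of these HOXD silencers overlapped another list. Apart from the LNCap silencer of 7.2, the highest scores per window and list were reached by 0.694% to 2.11% of their list.

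The median width was 50 bp in every window and list, as over the whole lists. A width over 300 bp was listed for 2 silencers of 293T (0.604%, against 1.39% of the list), 6 of K562 (1.47% against 2.32%) and 13 of LNCap (2.99% against 2.28%). The widest was chr2:176513817-176514700 in K562, 883 bp with a score of 2, above the HOXD genes and overlapping no other list. In HOXC it was chr12:53447161-53447961 in LNCap, 800 bp with a score of 2, which overlapped 293T, and in HOXA chr7:26036539-26036983 in LNCap, 444 bp with a score of 2, which overlapped K562. The widest silencers thus had scores at or near the lowest listed.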

How the data were processed

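The deposited silencer lists, 1 per line, hold positions and an activity column, per the file headers. Activity is a score of the authors with 1 decimal, scale not stated. Bowtie2, SAMtools and hg38 come from the submitters' processing notes, without versions; for the caller, its thresholds and the pooling of libraries the answer is not given in the sources used here. Positions are printed as deposited, with the start's base not stated. Broken lines and widths over 5000 bp were left out (58, 12 and 25 in 293T, K562 and LNCap). Genome length, 3086 Mb, is the sum of the highest end per chromosome.

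Densities carry exact Poisson, shares Wilson and ratios exact conditional intervals (95%), with no hypothesis test. Members, lists and HOX gene bins were chosen with earlier results of these data known. The bins come from general knowledge, not an annotation. By rule the text names regions held by all lists, the highest score per list and window, the widest silencer and the fullest and emptiest bins per window; other positions named were chosen after their values were seen. Gene features, promoters and sequence were not analysed here, as no human genome was used; mouse names come from RefSeq (GRCm38.p6). Scripts were tested on simulated data. Python 3.11.15, numpy 2.4.6, scipy 1.17.1 and matplotlib 3.10.9 were used.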

Additional observations from a re-analysis of the deposited data

How the results depend on the processing

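Medians of the scores were unchanged under 6 of 6 alternatives, but this was a weak check. In 3 of them infinite scores were ranked highest, and the outcome was fixed because no HOX silencer had such a score. The other 3 kept the 50 bp silencers, a subset of the same members. The rule asked only that a median stay within the quartiles of the main values. Of the alternatives, 13 of 84 for density, 8 of 60 for line balance, 22 of 42 for overlap and 6 of 24 for gene bins over flanks left the main interval, and the cause was not tested. Density ratios at a score of at least 2.5 were 2.21 (HOXB K562), 0.681 (HOXD 293T) and 0.517 (HOXD LNCap). At a score of at least 3 they were 2.49 (HOXB K562), 0.773 (HOXA LNCap), 0.723 (HOXC 293T), 0.973 (HOXC K562), 0.347 (HOXD 293T), 0.545 (HOXD K562) and 0.579 (HOXD LNCap). Narrowing the window by 250 kb gave 1.28 for HOXC K562, and the own chromosome 1.23 and 1.36 for HOXB K562 and LNCap. Line balance at 2.5 was 1.33 (HOXB K562) and 0.729 (HOXD LNCap), and at 3 it was 1.63 (HOXB K562), 0.863 (HOXB LNCap), 0.834 (HOXC K562), 1.90 (HOXC LNCap), 1.30 (HOXD LNCap) and 0.617 (HOXD 293T). The low 293T share of HOXC stayed below 1 under all 5 alternatives, but its interval includes 1 in 3 of them (scores of 2.5 or 3, narrowed window). Intervals changed their side of 1 in 15 of 84 alternatives for density, 5 of 60 for line balance and 9 of 24 for gene bins over flanks. Those not yet given are HOXB 293T at 2.5 (0.956 to 2.00), and HOXC K562 (0.316 to 2.27) and LNCap (0.772 to 2.96) at 3. For gene bins they are K562 at 3 (0.00459 to 1.11) and LNCap at 2.5 (0.444 to 1.54) and 3 (0.293 to 2.45). With at least 50% of both silencers overlapping, shares were 1.51% (293T in K562), 1.81% (293T in LNCap), 1.23% (K562 in 293T), 7.11% (K562 in LNCap), 1.38% (LNCap in 293T) and 6.67% (LNCap in K562). The whole lists gave 1.08%, 1.14%, 1.01%, 6.56%, 1.04% and 6.39% in that order. With midpoints within 500 bp the HOX shares were, in the same order, 12.4%, 13%, 10.3%, 28.7%, 10.6% and 28.0%. The whole lists then gave 10.0%, 10.6%, 9.21%, 27.2%, 9.65% and 27.0%. At a score of at least 2.5 the HOX shares were 1.83% (293T in LNCap), 8.94% (K562 in LNCap), 1.75% (LNCap in 293T) and 9.65% (LNCap in K562). The whole lists then gave 2.12%, 11.7%, 2.19% and 10.5%. At 3 the HOX shares were 0% (293T in K562), 0% (K562 in 293T), 5.41% (K562 in LNCap) and 5.00% (LNCap in K562). The whole lists then gave 1.03%, 1.37%, 8.79% and 7.18%. Silencers of 50 bp gave 12.6% (K562 in LNCap) and 10.3% (LNCap in K562). Gene bins over flanks were 0.531 (293T) and 0.225 (K562) at 2.5, 0.693 (293T) and 0.186 (K562) at 3, and 0.981 (K562) and 1.02 (LNCap) with widened bins. The own chromosome, occupied bins as genome length, 50 bp silencers for overlap and all alternatives for gene bins were chosen after seeing the data. Promoter distance and sequence alternatives were not run. No paired analysis was possible because each line has 1 list and the result comes from no test. Counts of 3 to 5 silencers, as in the HOXC gene bins, carry intervals over several-fold.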

Other observations

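Dense runs, with at least 3 silencers of a list each within 500 bp of the next, numbered 13 in the windows, 7 of them in HOXB. LNCap had 5 of the HOXB runs, K562 1 and 293T 1. Runs were not counted over the whole lists. In HOXB, the fullest window, 21.5% of the LNCap gaps were within 500 bp, against 14.4% of the list. For 293T this was 19.8% against 13.8%, and for K562 12.8% against 13.3%. The HOXB run chr17:48843901-48844943 of LNCap, 3 silencers over 1042 bp with a highest score of 3.4, partly covers the K562 run chr17:48844695-48845642, 3 silencers over 947 bp with a highest score of 3.2. Both lie in the fullest HOXB bin. At the outer end of HOXC, runs of LNCap (chr12:53434951-53435251) and K562 (chr12:53435767-53436555) lie next to each other without overlapping, with highest scores of 2.1 and 2.4. No run lay in the HOX gene bins of any window, which make up 1 of the 7.7 Mb, and no expected number was computed.

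Starts on the 50 bp grid differed between lists in the windows. Of the 293T starts 52.6% left a remainder of 1 when divided by 50, and of the K562 starts 47.8% did. Of the LNCap starts 34.9% did, against 43.8% of the whole LNCap list. In 293T and K562 the shares of the whole lists were 53.6% and 43.3%.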
